A study of Mus musculus with 12 samples.

Results

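Plasmablasts that lack Mzb1 were compared with pre-plasmablasts that lack Mzb1, the second of the sorted steps from activated B cell to antibody-secreting cell. The comparison takes 4 of the 12 libraries of the series, 2 of each population, chosen by the genotype and the sorted population in their labels and by no measured value. All cells came from the spleens of C57BL/6 mice, were enriched for B220, a surface marker of B cells, with magnetic beads, and were kept for 4 days with 25 µg/ml lipopolysaccharide (LPS), a bacterial cell wall component that activates B cells. The 4 libraries carry the genotype Mzb1-/- Prdm1+/gfp, and the libraries set beside them carry Mzb1+/+ Prdm1+/gfp. In every group, controls included, 1 of the Prdm1 alleles therefore carries the green fluorescent protein reporter for Blimp1. The sort gate for pre-plasmablasts was reporter-positive without surface CD138, and that for plasmablasts required both. Activated B cells, negative for both, give the level before this step. The age and sex of the mice and the part of Mzb1 that was removed are not given in the sources used here. The deposited files carry 1 number for each genotype and replicate that recurs in all 3 populations, and what it stands for is not stated. The labels do not say whether the 2 libraries of a group came from separate mice or cultures, so p-values measure only the spread between these samples, which may be technical.

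Blimp1, the product of Prdm1, is the repressor that ends the B cell programme, and the transcription factors Irf4 and Xbp1 act with it to build the secretory cell. Xbp1 is spliced by the stress sensor Ire1 and enlarges the endoplasmic reticulum (ER), where antibody chains are inserted, glycosylated, folded and assembled. CD138 is the heparan sulfate proteoglycan syndecan 1, encoded by Sdc1, and is the standard surface marker of plasmablasts and plasma cells. BCMA, the product of Tnfrsf17, is the receptor through which plasma cells receive survival signals from APRIL. Mzb1 is an ER protein of the B lineage that acts as a co-chaperone of Hsp90b1 (Grp94), which folds integrins, Toll-like receptors and immunoglobulin chains.

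Levels are in FPKM, fragment numbers corrected for the length of the transcript and the size of the library, for replicates 1 and 2 in that order. Across the 4 libraries the FPKM summed to between 472776 and 567737, and 10361 to 10466 genes reached 1 FPKM. The files hold no counts, so sequencing depth is unknown. Pre-plasmablast replicate 2 stood apart, with 14.2% of its total on small RNA genes against 1.57% to 3.92% in the other 3 libraries, and 0 of the 34 small RNA genes tested passed the test. Values below 0.5 FPKM fell into 2 patterns of shared ratios between libraries, and pre-plasmablast replicate 1 was the only library of the 4 with the first pattern. The test was repeated with only the 4 libraries, with no filter on low values, with a term for this pattern (the pattern term), with other scalings and pseudocounts, and without each library in turn. In the 6 groups, 3 sorted populations of each genotype, the 2 libraries of a group correlated across genes, which are not independent replicates, at 0.984 to 0.989.

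The targeted gene was checked first. Mzb1 was at 273 and 289 FPKM in Mzb1-/- activated B cells, at 899 and 871 FPKM in pre-plasmablasts and at 1008 and 926 FPKM in plasmablasts. The matching Mzb1+/+ libraries held 845 and 1016, 10066 and 9926 and 15434 and 17359 FPKM, above every Mzb1-/- library of the same population. Fragments were thus still assigned to the gene in the knockout, and which part of the transcript they cover cannot be read from these files.

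The sort was checked on the markers of plasmablasts. Sdc1 was at 3.24 and 4.56 FPKM in pre-plasmablasts and 66.5 and 98.4 FPKM in plasmablasts (log2 change 4.08 ± 0.19 SE, adjusted p = 5.57e-06). Tnfrsf17 was at 0.709 and 1.07 FPKM in pre-plasmablasts and 8.50 and 21.3 FPKM in plasmablasts (log2 change 2.95 ± 0.38 SE, adjusted p = 0.00128). Both were higher in every plasmablast library, but the Sdc1 product was itself the sorting gate, so its size is set in part by the sort. Prdm1, whose reporter was positive in both populations, was at 324 and 272 FPKM in pre-plasmablasts and 263 and 227 FPKM in plasmablasts and did not pass the test (log2 change -0.28, 95% interval -0.58 to 0.02). Its libraries did not overlap between the populations either.

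Markers of other cell types were mostly at or near 0. Cd3e of T cells, S100a8, S100a9 and Elane of myeloid cells, Ncr1 and Klre1 of natural killer cells, Hba-a1, Hba-a2 and Hbb-b1 of red cells and Mcpt8, Cpa3, Fcer1a and Epx of mast cells and granulocytes were at 0 in all 4 libraries. Of 10 T cell genes listed 3 reached the level for testing and 1 passed, of 10 myeloid genes 3 and 1, of 7 natural killer genes 3 and 1, of 8 dendritic cell genes 4 and 0, of 8 red cell and platelet genes 1 and 0, of 7 mast cell and granulocyte genes 2 and 1 and of 7 endothelial and stromal genes 2 and 0. Over all genes tested, 10.8% passed. The lists' summed levels were 11.9 to 12.2 FPKM in pre-plasmablasts and 9.27 to 14.4 FPKM in plasmablasts for T cells, 22.0 to 23.1 and 30.3 to 39.7 FPKM for myeloid cells, and 2.82 to 3.33 and 6.85 to 7.39 FPKM for natural killer cells. For dendritic cells they were 13.4 to 18.3 and 10.1 to 12.3 FPKM, for red cells and platelets 1.18 to 1.27 and 1.71 to 1.84 FPKM, for mast cells and granulocytes 3.82 to 6.16 and 2.08 to 4.33 FPKM, and for endothelium and stroma 12.8 to 13.8 and 14.1 to 14.9 FPKM. Lat, a T cell adaptor, fell from 3.87 and 3.50 to 0.842 and 1.21 FPKM, Cd68, a lysosomal protein of macrophages, rose from 17.6 and 22.0 to 28.0 and 35.5 FPKM, and Eomes, a transcription factor of killer lymphocytes, rose from 0.648 and 1.02 to 5.15 and 4.40 FPKM. Siglecf, a lectin of eosinophils, rose from 0.340 and 0.676 to 1.44 and 1.62 FPKM. It was below 1 FPKM in Mzb1-/- activated B cells and in both Mzb1+/+ populations of this step. Siglecf can thus have met the level for testing through the plasmablast libraries where it is high. Of the tested members of these lists that did not pass, Cd3g changed by 0.89 and Cd5 by -0.51 on the log2 scale. Lyz2 changed by 0.74, Adgre1 by -0.57, Nkg7 by 0.19, Prf1 by -0.45 and Prg3 by -1.14. Flt3 of the dendritic cell list was at 13.1 and 9.96 and then 9.04 and 7.39 FPKM. Pecam1 of the endothelial list was at 13.2 and 11.9 and then 13.9 and 12.7 FPKM, and neither passed. The part of such cells in the results was not tested. Among sex-linked genes, the Y-linked Eif2s3y was at 57.7 and 45.5 and then 51.6 and 43.0 FPKM. Xist was at 0.233 and 0.0151 and then 0.389 and 0.0291 FPKM. B lineage genes were abundant in all libraries, among them Cd79a (1999 and 1747 and then 1084 and 981 FPKM) and Ms4a1 (337 and 350.1 and then 347 and 346 FPKM). Of the 7 listed 3 fell, Cd79a and Ebf1 among them, which is 42.9% called against 10.8% of all genes. Left out in turn, pre-plasmablast replicate 1 ended the calls of Lat, Cd68, Siglecf and Cd79a (adjusted p up to 0.184), pre-plasmablast replicate 2 that of Lat (0.0511), plasmablast replicate 1 that of Lat (0.074) and plasmablast replicate 2 those of Lat, Cd68, Siglecf and Cd79a (up to 0.193). Among the other settings, the fit of only the 4 libraries ended the calls of Cd68 and Siglecf (adjusted p up to 0.0831), no filter that of Cd68 (0.0654) and the pattern term that of Cd68 (0.0732).

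Of 11069 genes tested, 1196 (10.8%) passed the test between the 2 populations, at an adjusted p below 0.05 in limma. In plasmablasts 727 (6.57%) were higher and 469 (4.24%) lower. Most changes were small: the median log2 change was 0.60 among the genes that rose and -0.66 among those that fell, against 0.0086 over all genes tested. Only 84 rose and 98 fell by at least 1 on the log2 scale, and 3 rose and 11 fell by at least 2. The libraries of both populations did not overlap for any of the 1196, and the same held for 6072 (54.9%) of all genes tested. As the RNA is of bulk samples, fewer cells of a type and less RNA per cell cannot be told apart. Scaling every library to the same FPKM sum, leaving small RNA genes out of that sum ("equal totals" below), moved the median of all genes to -0.12 and the split to 389 higher and 1024 lower, 27.5% higher in place of 60.8%. Without pre-plasmablast replicate 1, 383 genes were called, without pre-plasmablast replicate 2 632, without plasmablast replicate 1 808 and without plasmablast replicate 2 377, and in each of these fits 0 of the shared calls changed sign. A fit of only the 4 libraries called 489. A pseudocount of 5 in place of 1 shrank the log2 change of 26 of the 118 called genes of the named set by more than 1.5 times, as it does for low genes by its construction, among them Tnfrsf17 (to 1.68) and Nrg2 (to 1.31).

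The largest rises were taken among called genes with a mean of at least 5 FPKM and no overlap between the populations. After Sdc1 and Tnfrsf17, the largest was that of Nrg2, a growth factor of the neuregulin family, at 0.863 and 1.19 FPKM in pre-plasmablasts and 8.65 and 11.3 FPKM in plasmablasts (log2 change 2.44 ± 0.16 SE, adjusted p = 3.64e-05). Tigit, an inhibitory receptor known from T and natural killer cells, was at 29.3 and 36.1 FPKM in pre-plasmablasts and 104 and 132 FPKM in plasmablasts (log2 change 1.82 ± 0.25 SE, adjusted p = 0.00176). P2ry14, a receptor for UDP-glucose, rose from 0.760 and 1.16 to 3.75 and 7.35 FPKM. In each of these genes the lowest plasmablast library was at least as far above the highest pre-plasmablast library as the 2 pre-plasmablast libraries lay apart. Kcnmb4, a regulatory subunit of calcium-activated potassium channels, rose from 1.15 and 2.67 to 5.55 and 11.1 FPKM, and Cacna1h, a T-type calcium channel, from 9.75 and 10.6 to 31.6 and 33.6 FPKM. Pls1, an actin-bundling plastin, reached 8.66 and 8.61 FPKM from 2.05 and 2.20 FPKM. Further rises were those of the orphan receptor Gpr160 (log2 change 1.56), Oosp1 (1.53), Basp1 (1.47), the semaphorin and VEGF co-receptor Nrp2 (1.43), the retinoic acid binding protein Crabp2 (1.38) and the extracellular matrix protein Papln (1.38). Nrg2, Cacna1h and Pls1 were near 0 in activated B cells, with 0 and 0.0220 FPKM of Nrg2, 0.0653 and 0.101 FPKM of Cacna1h and 0.0638 and 0.0330 FPKM of Pls1. When left out, pre-plasmablast replicate 1 ended the calls of Kcnmb4, Crabp2 and Papln (adjusted p up to 0.133) and plasmablast replicate 2 those of Kcnmb4, Crabp2 and Papln (up to 0.144). Of the other fits, the fit of only the 4 libraries ended the calls of Kcnmb4, Crabp2 and Papln (adjusted p up to 0.0727), no filter that of Crabp2 (0.0534) and the pattern term that of Crabp2 (0.0541).

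**Figure D1:**
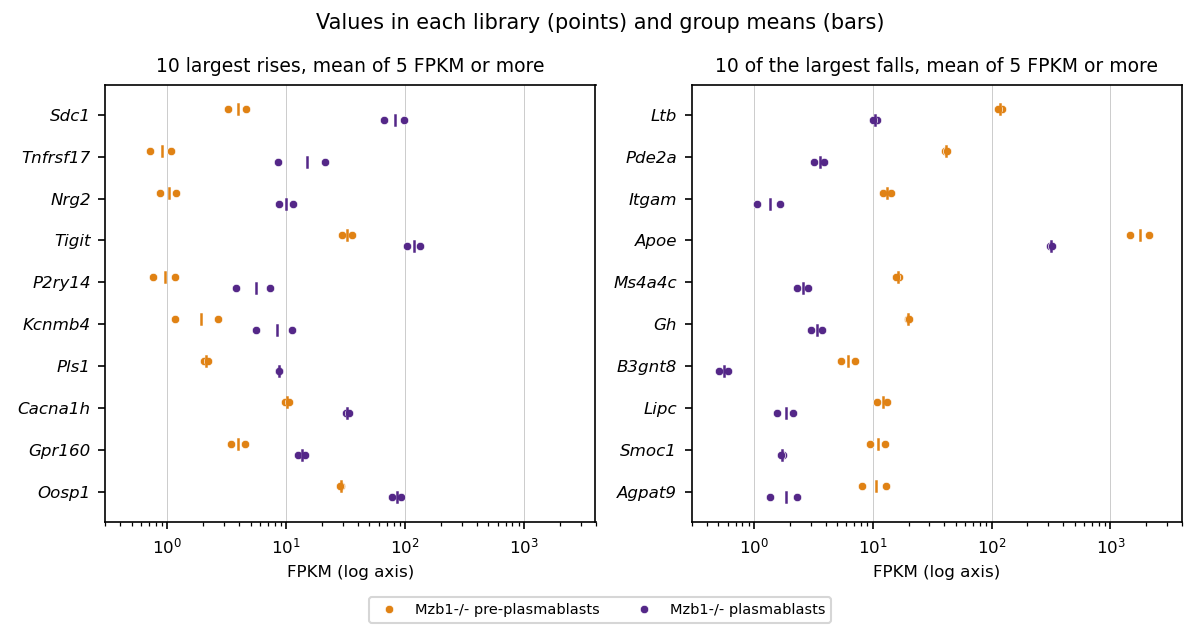
FPKM on a log axis of the 10 genes with the largest rises (left) and 10 of those with the largest falls (right) in log2(FPKM + 1) among called genes with a mean of at least 5 FPKM. Points are the 2 libraries of each Mzb1-/- population and bars are group means. The genes were chosen among those with no overlap of the populations, which held for 54.9% of all genes tested. Sdc1 goes from 3.24 and 4.56 to 66.5 and 98.4 FPKM while Ltb goes from 122 and 113 to 10.9 and 9.97 FPKM.

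The deepest fall was that of Ltb, the membrane anchor of lymphotoxin, at 122 and 113 FPKM in pre-plasmablasts and 10.9 and 9.97 FPKM in plasmablasts (log2 change -3.37 ± 0.22 SE, adjusted p = 3.64e-05). Pde2a, a cyclic nucleotide phosphodiesterase, was at 40.5 and 42.3 FPKM in pre-plasmablasts and 3.90 and 3.23 FPKM in plasmablasts (log2 change -3.22 ± 0.17 SE, adjusted p = 9.04e-06). The 2 libraries of a population lay close together in both genes, far from those of the other. Itgam, an integrin chain described with the adhesion genes, and Ms4a4c, a tetraspanning membrane protein, fell by 2.59 and 2.26 on the log2 scale. Apoe, the lipid carrier apolipoprotein E, fell from 1466 and 2090.0 to 307 and 321 FPKM and kept a high level. Gh, which encodes growth hormone, fell by 2.26 on the log2 scale from 19.8 and 20.1 FPKM. B3gnt8, a glycosyltransferase, Lipc, hepatic lipase, Smoc1, a matrix protein, and Agpat9, an acyltransferase, fell by 2.21, 2.20, 2.13 and 2.01 on the log2 scale. Dnase1l3, a secreted DNase, and Prg2, known as the major basic protein of eosinophils, fell by 1.94 and 1.86.

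Levels in activated B cells differed among these genes. Itgam, at 98.0 and 122 FPKM in activated B cells, and Ms4a4c, at 80.8 and 84.5 FPKM, were highest before the step. Ltb (14.7 and 28.6 FPKM), Apoe (43.9 and 84.7 FPKM), Prg2 (0.116 and 0.370 FPKM) and Smoc1 (0.637 and 0.778 FPKM) were instead lower in activated B cells than in pre-plasmablasts, so their highest level of the 3 populations was in pre-plasmablasts. Pde2a (32.3 and 46.9 FPKM), Agpat9 (7.83 and 11.8 FPKM) and Dnase1l3 (4.04 and 8.44 FPKM) in activated B cells overlapped their pre-plasmablast libraries. The pre-plasmablast libraries enter both steps, so the rise and the fall of these genes are not independent.

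**Figure D2:**
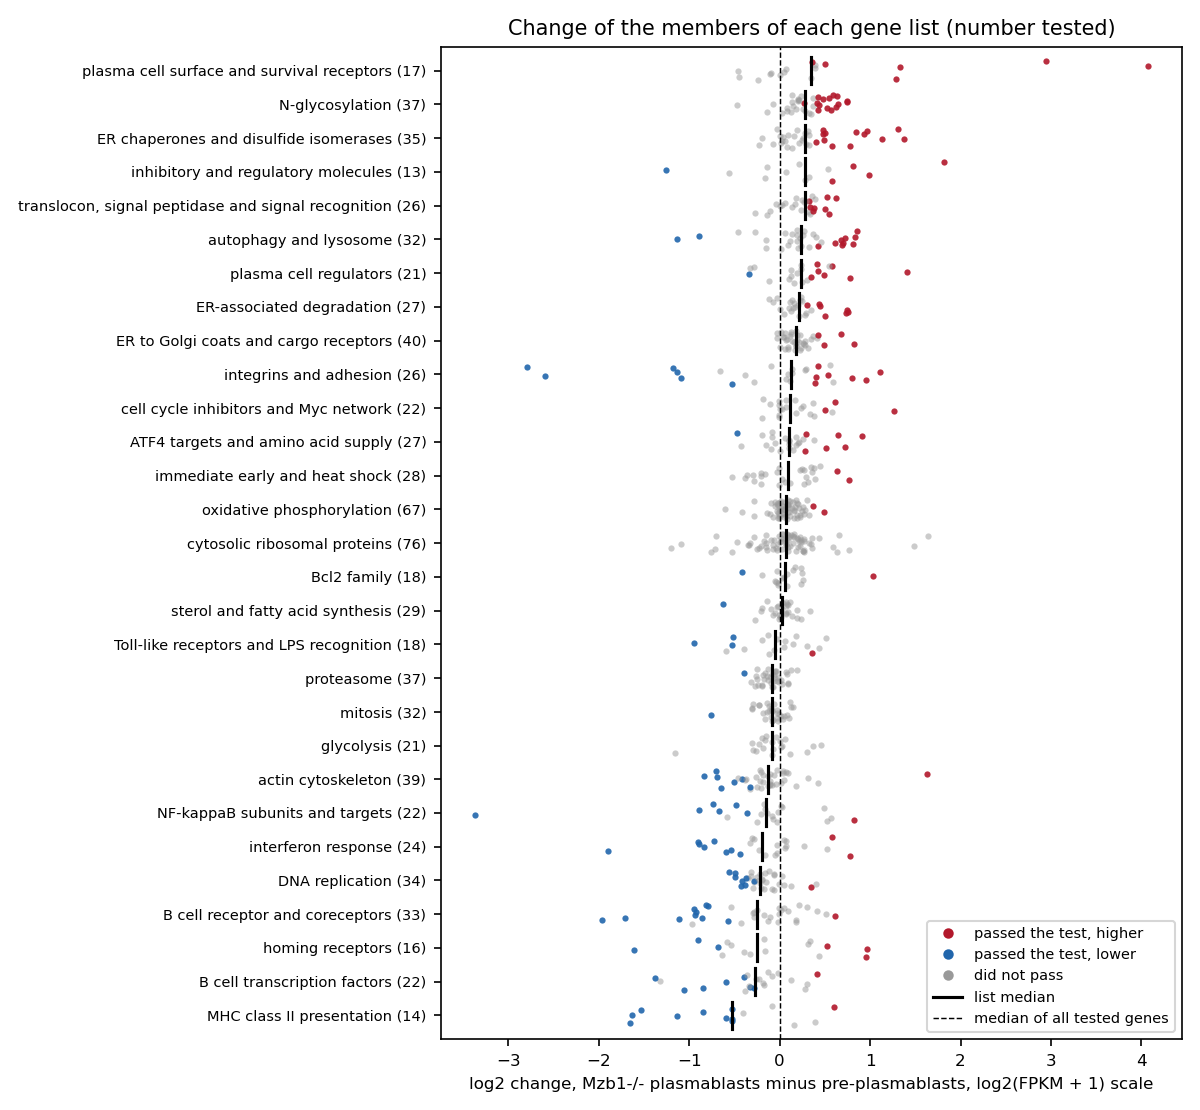
Log2 change of every tested member (points) of the 29 gene lists, with the number tested in brackets, the list median (black bar) and the median of all tested genes (dashed line). Lists are sorted by median, from 0.35 for plasma cell surface and survival receptors to -0.53 for MHC class II presentation.

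Part of the plasma cell regulators rose, while Prdm1 and Irf4 did not pass the test. Of 21 plasma cell regulators 7 rose and 1 fell, 38.1% called against 10.8% of all genes, with a median log2 change of 0.23. Xbp1 was at 1394 and 1317 FPKM in pre-plasmablasts and 2031 and 2013 FPKM in plasmablasts (log2 change 0.58 ± 0.09 SE, adjusted p = 0.00427). Jchain, the joining chain of polymeric antibody, was at 6669.6 and 6785 FPKM in pre-plasmablasts and 16299 and 19529.9 FPKM in plasmablasts (log2 change 1.41 ± 0.35 SE, adjusted p = 0.0305). Both plasmablast libraries lay above both pre-plasmablast libraries in each gene, as in every gene called higher. With quantile normalization, which gives every library the same distribution of values, the log2 change of Jchain was 0.54 and 3 of the regulators rose. Eaf2 and Ell2, partners in transcript elongation, rose from 96.1 and 94.4 to 153 and 176 FPKM and from 176 and 164 to 216 and 216 FPKM, and Mef2c and Zfp36l1 by 0.43 and 0.41 on the log2 scale. Fam46c also rose, and Ikzf3, the factor Aiolos, fell. Irf4, which drives plasma cell fate at high levels, was at 275 and 229.9 FPKM in pre-plasmablasts and 310.1 and 266 FPKM in plasmablasts, with overlapping libraries and a log2 change of 0.19 (95% interval -0.07 to 0.46). Of 17 plasma cell surface and survival receptors, 6 rose and 0 fell, 35.3% called, with a median of 0.35. They were Sdc1, Tnfrsf17, Cd28 (from 10.2 and 13.4 to 24.8 and 36.3 FPKM), Ly6c2 (from 6.35 and 9.52 to 16.0 and 27.8 FPKM), Tnfrsf13b and Tnfrsf13c, the last 2 being the other receptors for the survival factors BAFF and APRIL. Leaving out pre-plasmablast replicates 1 and 2 and plasmablast replicates 1 and 2 in turn gave 2, 3, 3 and 2 rising regulators and 3, 5, 5 and 4 rising receptors. As the library left out, pre-plasmablast replicate 1 ended the calls of Jchain, Ell2, Mef2c, Zfp36l1 and Ly6c2 (adjusted p up to 0.14), pre-plasmablast replicate 2 those of Jchain, Ell2 and Mef2c (up to 0.112), plasmablast replicate 1 those of Jchain, Ell2 and Zfp36l1 (up to 0.0784) and plasmablast replicate 2 those of Jchain, Ell2, Mef2c and Zfp36l1 (up to 0.17). In the other fits, the fit of only the 4 libraries ended the calls of Xbp1, Jchain, Ell2, Mef2c, Zfp36l1 and Ly6c2 (adjusted p up to 0.097), no filter that of Jchain (0.0968), the pattern term that of Jchain (0.082), quantile normalization those of Jchain, Ell2 and Zfp36l1 (up to 0.408) and equal totals those of Ell2, Mef2c and Zfp36l1 (up to 0.125).

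A share of the genes of the secretory apparatus rose, and 0 fell. Of 35 ER chaperones and disulfide isomerases 13 rose and 0 fell, of 27 genes of ER-associated degradation 7 and 0, of 26 genes of the translocon and signal peptidase 8 and 0, and of 37 genes of N-glycosylation 15 and 0. Of 40 genes of ER to Golgi transport, 4 rose and 0 fell. The shares called were 37.1%, 25.9%, 30.8%, 40.5% and, for Golgi transport, 10.0%, the last near the 10.8% of all genes. As all lists here were chosen with earlier results of these data known, such shares are descriptions and no independent test. Their median log2 changes were 0.28, 0.21, 0.28, 0.29 and 0.18, against 0.0086 over all genes. With equal totals, where all genes had a median of -0.12, these 5 medians were 0.13, 0.06, 0.13, 0.14 and 0.04. In that setting 1 gene of degradation and 1 of the translocon fell. In the fit of only the 4 libraries 0 genes of the translocon rose. With quantile normalization they lay above the median of all genes by 0.13, 0.12, 0.17, 0.25 and 0.09 on the log2 scale, and 9, 5, 4, 12 and 3 members rose. Left out in the order given above, the libraries gave 7, 7, 14 and 7 rising chaperones, 3, 4, 6 and 3 genes of degradation, 2, 2, 7 and 1 of the translocon, 2, 8, 11 and 2 of N-glycosylation and 1, 2, 7 and 0 of Golgi transport.

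The promoters of this apparatus are known for 2 motifs, through which ER stress factors act. The ER stress element, CCAAT, 9 bases and CCACG, is bound by NF-Y and ATF6, and the element TGACGTGG by Xbp1 and ATF6. Both were searched on both strands in the 250 bases before each gene start in RefSeq's GRCm38.p6 promoters, a later build than the mm9 of the files, and the second can overlap the CCACG of the first. Of all 32851 windows, 0.113% held the ER stress element and 0.563% the second element. Of the 8459 tested genes that matched by symbol, 14 (0.166%) and 79 (0.934%) held them. The 4 windows below are those of rising secretory genes with a full motif, shown 5′ to 3′ on the strand of the gene with the motif in capitals, the ER stress element in Dnajc3 (chr14:118937797-118937875) and TGACGTGG or its reverse complement in Kdelr3 (chr15:79516348-79516407), Txndc11 (chr16:11134597-11134664) and Txndc5 (chr13:38528015-38528082).
Dnajc3, + strand: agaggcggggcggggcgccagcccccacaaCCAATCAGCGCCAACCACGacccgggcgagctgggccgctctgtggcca
Kdelr3, + strand: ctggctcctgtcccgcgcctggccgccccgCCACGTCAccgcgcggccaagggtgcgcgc
Txndc11, - strand: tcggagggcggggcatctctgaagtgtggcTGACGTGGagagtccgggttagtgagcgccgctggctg
Txndc5, - strand: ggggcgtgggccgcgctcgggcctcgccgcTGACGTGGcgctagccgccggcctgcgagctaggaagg

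Of 29 chaperones with a matched promoter, 7 (24.1%) held the ER stress element, namely Calr, Canx, Creld2, Dnajc3, Hsp90b1, Hspa5 and Pdia6. Of these only Dnajc3 passed the test (172 and 176 FPKM in pre-plasmablasts and 208 and 256 FPKM in plasmablasts, log2 change 0.41 ± 0.11 SE, adjusted p = 0.044). In the other secretory lists the ER stress element was in Derl3, Syvn1 and Alg12, which did not pass. Of the 570 genes called higher with a matched promoter, 1 (0.175%) held the ER stress element, against 0.166% of those tested. Hspa5, the ER chaperone BiP, was at 2795 and 2427 FPKM in pre-plasmablasts and 2606 and 2753 FPKM in plasmablasts, with overlapping libraries and a log2 change of 0.04 (95% interval -0.22 to 0.30). Hsp90b1, the partner of Mzb1, was at 4476 and 3990.0 FPKM in pre-plasmablasts and 4704 and 5470.3 FPKM in plasmablasts (log2 change 0.26, adjusted p = 0.234). Its libraries did not overlap between the populations, and it did not pass the test. Calr and Canx, the lectin chaperones, changed by 0.14 and 0.08 and Pdia6 by 0.28, none of which passed. All of these were already abundant in pre-plasmablasts: Hspa5 had gone from 359 and 396 FPKM in activated B cells to 2795 and 2427 FPKM and Hsp90b1 from 419 and 456 to 4476 and 3990.0 FPKM. The element TGACGTGG was in 2 of the 29, Txndc11 and Txndc5, which both passed. In the other secretory lists it was in Kdelr3, which passed, and in Ube2j1, Vcp, Copb1 and Sec24d, which did not. Of the 570 genes called higher with a matched promoter, 7 (1.23%) held it, against 0.934% of those tested. In fits without 1 library, leaving out pre-plasmablast replicate 1 ended the call of Dnajc3 (adjusted p = 0.187), pre-plasmablast replicate 2 that of Dnajc3 (0.123) and plasmablast replicate 2 that of Dnajc3 (0.285). Among the other settings, the fit of only the 4 libraries ended the call of Dnajc3 (adjusted p = 0.125), no filter that of Dnajc3 (0.0811), the pattern term that of Dnajc3 (0.122), quantile normalization that of Dnajc3 (0.136) and equal totals that of Dnajc3 (0.0936). A match of letters is a description of these windows and shows no binding.

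The largest rises among the chaperones were those of a disulfide isomerase and 2 prolyl isomerases. Fkbp11, a prolyl isomerase of secretory cells, was at 179 and 194 FPKM in pre-plasmablasts and 453 and 520.2 FPKM in plasmablasts (log2 change 1.37 ± 0.14 SE, adjusted p = 0.000339). Txndc5, a disulfide isomerase, was at 1191 and 1611 FPKM in pre-plasmablasts and 3016 and 3894 FPKM in plasmablasts (log2 change 1.31 ± 0.17 SE, adjusted p = 0.00127). Fkbp2, another ER prolyl isomerase, was at 301 and 340.1 FPKM in pre-plasmablasts and 666 and 740.1 FPKM in plasmablasts (log2 change 1.13 ± 0.10 SE, adjusted p = 0.000188). In all 3 the lowest plasmablast library lay well above the highest pre-plasmablast library. Prdx4, the ER peroxidase, rose from 487 and 449.9 to 819 and 860.0 FPKM, Sil1, the nucleotide exchange factor of Hspa5, from 78.6 and 91.2 to 149.9 and 184 FPKM, and Txndc11 from 254 and 275 to 345 and 396 FPKM. The others that passed were Dnajc3, described above, Pdia4, Pdia5, Ppib, Cnpy2, Cnpy3 and Erp44. Left out in turn, pre-plasmablast replicate 1 ended the call of Txndc11 (adjusted p = 0.149), pre-plasmablast replicate 2 that of Txndc11 (0.0587) and plasmablast replicate 2 that of Txndc11 (0.171). Of the other fits, the fit of only the 4 libraries ended the call of Txndc11 (adjusted p = 0.0773), no filter that of Txndc11 (0.0533), the pattern term that of Txndc11 (0.0576) and quantile normalization that of Txndc11 (0.0891).

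Genes of degradation, insertion and glycosylation rose as well. The lectins Erlec1 and Os9 and the mannosidase-like proteins Edem1 and Edem2 steer misfolded glycoproteins to degradation. Erlec1 rose from 48.5 and 45.7 to 73.8 and 86.1 FPKM, Edem2 from 315 and 315 to 501 and 565 FPKM and Edem1 from 425 and 466 to 675 and 814 FPKM, and Aup1, a lipid droplet and degradation factor, by 0.50 on the log2 scale. In the insertion machinery Ssr4, a subunit of the translocon-associated complex, rose from 1182 and 1132 to 1699 and 1884 FPKM, and Spcs1 and Spcs2, subunits of the signal peptidase, by 0.50 and 0.38. Tram1, a translocating chain protein, rose by 0.52. For N-glycosylation, Man1b1, an ER mannosidase, was at 172 and 188 FPKM in pre-plasmablasts and 284 and 321 FPKM in plasmablasts (log2 change 0.75 ± 0.09 SE, adjusted p = 0.000795). Dpagt1, which starts the lipid-linked sugar, rose from 42.4 and 42.0 to 55.7 and 59.0 FPKM, Prkcsh, a glucosidase subunit, from 260.4 and 269 to 342 and 397 FPKM, and Krtcap2, a subunit of the oligosaccharyltransferase, from 754 and 869 to 1227 and 1495 FPKM. The KDEL receptors Kdelr3 and Kdelr1, which return ER proteins from the Golgi, rose from 4.66 and 4.87 to 8.85 and 9.55 FPKM and from 164 and 166 to 209.8 and 258 FPKM, and the cargo receptors Tmed3 and Tmed10 by 0.68 and 0.42. With quantile normalization the change of Aup1 was 0.33, of Prkcsh 0.28 and of Kdelr1 0.32, and without plasmablast replicate 2 that of Tmed10 was 0.28. When left out, pre-plasmablast replicate 1 ended the calls of Aup1, Spcs2, Tram1, Prkcsh, Krtcap2, Kdelr1, Tmed3 and Tmed10 (adjusted p up to 0.123), pre-plasmablast replicate 2 those of Spcs1, Spcs2, Kdelr1 and Tmed10 (up to 0.15) and plasmablast replicate 2 those of Aup1, Spcs1, Spcs2, Tram1, Dpagt1, Prkcsh, Krtcap2, Kdelr3, Kdelr1, Tmed3 and Tmed10 (up to 0.201). In the other fits, the fit of only the 4 libraries ended the calls of Edem1, Aup1, Ssr4, Spcs1, Spcs2, Tram1, Prkcsh, Krtcap2, Kdelr1 and Tmed10 (adjusted p up to 0.121), no filter those of Kdelr1 and Tmed10 (up to 0.0592), the pattern term that of Kdelr1 (0.067), quantile normalization those of Spcs1, Spcs2, Kdelr1 and Tmed10 (up to 0.0846), equal totals those of Spcs2 and Tmed10 (up to 0.0871) and a pseudocount of 0.1 that of Kdelr3 (0.26).

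**Figure D3:**
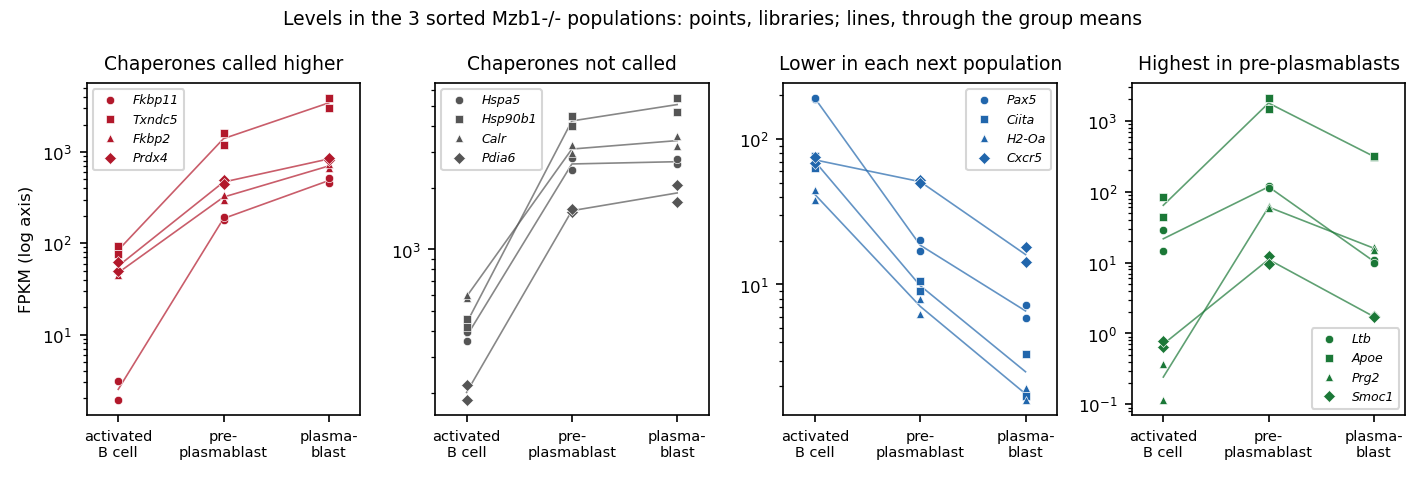
FPKM (log axis) in the 3 sorted Mzb1-/- populations, with points for the 2 libraries of each and lines through the group means. The chaperones called higher, such as Fkbp11, rise at both steps, while Hspa5, at 2795 and 2427 and then 2606 and 2753 FPKM, is level over the second; the other panels show genes that fall to plasmablasts from a pre-plasmablast level below (Pax5) or above (Ltb) that of activated B cells.

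Amino acid supply and the ATF4 pathway, the arm of the stress response that acts through translation, was followed in 27 genes. Of these 6 rose and 1 fell, 25.9% called against 10.8% of all genes, with a median of 0.11, which turned to -0.04 with equal totals. Slc3a2, the heavy chain of amino acid transporters, rose from 396 and 483 to 724 and 937 FPKM, its light chain Slc7a5 from 207 and 215 to 253 and 263 FPKM, the arginine carrier Slc7a3 from 43.9 and 36.2 to 61.8 and 64.4 FPKM and Chac1, a glutathione-degrading target of ATF4, from 41.4 and 38.8 to 68.2 and 65.6 FPKM. Cebpb and Asns rose as well, and Trib3, a target of ATF4 and Chop, fell. The lysosome and autophagy list held 9 rises and 2 falls among 32 members (34.4% called, median 0.23). Among the rises were Ctsa, the protective cathepsin, from 105 and 109 to 172 and 173 FPKM, the lysosomal membrane protein Lamp2 from 190.0 and 191 to 319.9 and 361 FPKM and Wipi1, an autophagosome factor, from 8.25 and 7.24 to 13.7 and 16.0 FPKM. Leaving out 1 library in turn gave 3, 2, 3 and 3 rises in the ATF4 list and 5, 6, 8 and 4 in the lysosomal list. As the library left out, pre-plasmablast replicate 1 ended the calls of Slc3a2 and Slc7a5 (adjusted p up to 0.198), pre-plasmablast replicate 2 those of Slc7a5 and Slc7a3 (up to 0.103), plasmablast replicate 1 that of Slc7a5 (0.0872) and plasmablast replicate 2 those of Slc7a5 and Slc7a3 (up to 0.192). Among the other settings, the fit of only the 4 libraries ended the calls of Slc3a2 and Slc7a5 (adjusted p up to 0.121), the pattern term that of Slc7a5 (0.102), quantile normalization that of Slc7a5 (0.344) and equal totals that of Slc7a5 (0.237).

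Part of the B cell identity genes fell. Some of them were already below activated B cells in pre-plasmablasts, such as Pax5, which had been at 189.7 and 191 FPKM there, while Vpreb3 (179 and 234 FPKM) and Cd79a (886 and 957 FPKM) had been lower in activated B cells than in pre-plasmablasts. Of 22 B cell transcription factors 7 fell and 1 rose (36.4% called against 10.8% of all genes, median -0.27). Pax5, the factor that maintains B cell identity and is repressed by Blimp1, was at 17.0 and 20.2 FPKM in pre-plasmablasts and 7.24 and 5.92 FPKM in plasmablasts (log2 change -1.37 ± 0.12 SE, adjusted p = 0.000204). Ebf1 was at 17.1 and 15.9 FPKM in pre-plasmablasts and 10.3 and 7.41 FPKM in plasmablasts (log2 change -0.84 ± 0.12 SE, adjusted p = 0.00271). Plasmablast libraries were below pre-plasmablast libraries in both genes, as in every gene called lower. Irf8 fell from 147 and 179 to 107 and 108 FPKM, and Etv6, Ets1, Bcl11a and Relb also fell. Stat6, which signals for interleukin 4, rose from 18.8 and 22.7 to 27.8 and 28.2 FPKM. Of 33 genes of the B cell receptor and its coreceptors, 10 fell and 1, Cd81, rose (33.3% called, median -0.25). Cd72, an inhibitory coreceptor, was at 44.3 and 57.7 FPKM in pre-plasmablasts and 15.3 and 14.2 FPKM in plasmablasts (log2 change -1.71 ± 0.13 SE, adjusted p = 4.77e-05). Cd22, the sialic acid binding coreceptor, was at 14.3 and 21.8 FPKM in pre-plasmablasts and 5.39 and 2.56 FPKM in plasmablasts (log2 change -1.97 ± 0.25 SE, adjusted p = 0.00127). Neither gene overlapped between the populations, as holds for every called gene. Syk, the kinase of the receptor, fell from 249 and 223 to 146 and 126 FPKM, and Vpreb3 from 442 and 499.8 to 245 and 289.8 FPKM. Libraries left out in turn gave 3, 2, 6 and 2 falling factors and 4, 9, 9 and 4 falling receptor genes. In fits without 1 library, leaving out pre-plasmablast replicate 1 ended the call of Stat6 (adjusted p = 0.157), pre-plasmablast replicate 2 that of Irf8 (0.132), plasmablast replicate 1 those of Irf8 and Stat6 (up to 0.0858) and plasmablast replicate 2 those of Irf8 and Stat6 (up to 0.111). Of the other fits, the fit of only the 4 libraries ended the calls of Ebf1, Irf8 and Stat6 (adjusted p up to 0.102), no filter that of Irf8 (0.0575), the pattern term that of Stat6 (0.0566) and equal totals that of Stat6 (0.064).

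Antigen presentation by MHC class II had the lowest median of the lists, -0.53, with 9 of 14 members lower. The share called either way was 71.4%, against 10.8% of all genes. Ciita, the transactivator of the class II genes and a target of Blimp1, was at 9.04 and 10.6 FPKM in pre-plasmablasts and 3.31 and 1.71 FPKM in plasmablasts (log2 change -1.66 ± 0.18 SE, adjusted p = 0.000693). H2-DMb2, a chain of the peptide editor H2-DM, was at 17.6 and 18.6 FPKM in pre-plasmablasts and 5.68 and 4.70 FPKM in plasmablasts (log2 change -1.63 ± 0.13 SE, adjusted p = 5.78e-05). H2-Oa, a chain of its inhibitor H2-O, was at 6.25 and 7.89 FPKM in pre-plasmablasts and 1.93 and 1.61 FPKM in plasmablasts (log2 change -1.54 ± 0.17 SE, adjusted p = 0.000612). In all 3 the populations were well separated, from levels below those of activated B cells (63.7 and 76.4 FPKM for Ciita, 83.3 and 102 FPKM for H2-DMb2 and 38.2 and 44.9 FPKM for H2-Oa). H2-Aa, a presenting chain, was at 1257 and 1117 FPKM in pre-plasmablasts and 893 and 756 FPKM in plasmablasts (log2 change -0.53 ± 0.15 SE, adjusted p = 0.0471), and its partner H2-Ab1 fell from 1464 and 1388 to 1066 and 912 FPKM. H2-Eb2, H2-DMa, H2-DMb1 and H2-Ob fell as well. Cd74, the invariant chain, was at 9337 and 9961 FPKM in pre-plasmablasts and 10313 and 11317 FPKM in plasmablasts and did not pass (log2 change 0.16, 95% interval -0.25 to 0.58), and Ifi30, a lysosomal thiol reductase, rose from 93.2 and 102 to 136 and 163 FPKM. With libraries left out in the same order, 5, 5, 6 and 5 members fell. Left out in turn, pre-plasmablast replicate 1 ended the calls of H2-Aa, H2-Ab1 and Ifi30 (adjusted p up to 0.242), pre-plasmablast replicate 2 those of H2-Aa, H2-Ab1 and Ifi30 (up to 0.123), plasmablast replicate 1 those of H2-Aa and H2-Ab1 (up to 0.0692) and plasmablast replicate 2 those of H2-Aa, H2-Ab1 and Ifi30 (up to 0.267). In the other fits, the fit of only the 4 libraries ended the calls of H2-Aa, H2-Ab1 and Ifi30 (adjusted p up to 0.115), no filter those of H2-Aa, H2-Ab1 and Ifi30 (up to 0.125), the pattern term those of H2-Aa, H2-Ab1 and Ifi30 (up to 0.0896), equal medians those of H2-Aa and H2-Ab1 (up to 0.0553) and a pseudocount of 0.1 that of H2-Ab1 (0.0528).

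Some inflammatory and antiviral genes fell and fewer rose. The share called was 31.8% of NF-kappaB genes, 22.2% of Toll-like receptor genes and 41.7% of interferon genes, against 10.8% of all genes. Of 22 NF-kappaB subunits and targets 6 fell, among them Ltb, Nfkbie (from 53.7 and 53.0 to 31.4 and 25.6 FPKM), Tnip1 (from 42.4 and 42.1 to 26.2 and 23.8 FPKM) and Nfkb2 (from 53.7 and 53.3 to 44.5 and 38.7 FPKM), while the chemokine Ccl4 rose (median -0.15). Of 18 genes for Toll-like receptors and LPS recognition, 3 fell and 1 rose, with a median of -0.05. Tlr1 was at 1.94 and 2.04 FPKM in pre-plasmablasts and 0.596 and 0.514 FPKM in plasmablasts (log2 change -0.94 ± 0.12 SE, adjusted p = 0.00154), Tlr9, the receptor for unmethylated DNA, fell from 2.32 and 2.72 to 1.57 and 1.36 FPKM, Ticam2, an adaptor of Tlr4, fell from 9.34 and 8.29 to 6.22 and 5.44 FPKM, and the kinase Irak1 rose from 71.7 and 71.2 to 92.7 and 90.6 FPKM. Tlr1, Tlr9 and Ticam2 were lower in each plasmablast library, as was every gene called lower. In the interferon list 8 of 24 fell and 2 rose (median -0.19). Ifit1 was at 4.51 and 6.14 FPKM in pre-plasmablasts and 0.572 and 0.808 FPKM in plasmablasts (log2 change -1.89 ± 0.17 SE, adjusted p = 0.000179), Isg15 fell from 71.5 and 76.8 to 36.6 and 45.8 FPKM and Oasl1 from 44.7 and 50.1 to 22.7 and 27.4 FPKM, while Bst2, the virus tether tetherin, rose from 193 and 233 to 337 and 389.9 FPKM. With libraries left out in turn, 3, 4, 5 and 3 NF-kappaB genes, 1, 1, 3 and 1 Toll-like receptor genes and 4, 5, 4 and 4 interferon genes fell. When left out, pre-plasmablast replicate 1 ended the calls of Nfkb2, Tlr9, Ticam2 and Irak1 (adjusted p up to 0.19), pre-plasmablast replicate 2 those of Nfkb2, Tlr9, Ticam2 and Irak1 (up to 0.111), plasmablast replicate 1 those of Ticam2 and Irak1 (up to 0.0725) and plasmablast replicate 2 those of Nfkb2, Tlr9, Ticam2 and Irak1 (up to 0.192). Among the other settings, the fit of only the 4 libraries ended the calls of Nfkb2, Tlr9, Ticam2 and Irak1 (adjusted p up to 0.104), no filter that of Ticam2 (0.0645), the pattern term that of Ticam2 (0.0944), equal totals that of Irak1 (0.125) and a pseudocount of 5 that of Tlr9 (0.0624).

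Adhesion genes were divided, with 7 of 26 higher and 6 lower, 50% called against 10.8% of all genes. The integrins are pairs of an alpha and a beta chain, and the title of the series names the beta 1 chain. Itgb1, that chain, was at 29.3 and 33.2 FPKM in pre-plasmablasts and 31.4 and 35.4 FPKM in plasmablasts (log2 change 0.09, 95% interval -0.15 to 0.34), and its libraries overlapped. Itga4, the alpha 4 partner, was at 35.0 and 42.3 FPKM in pre-plasmablasts and 61.1 and 75.6 FPKM in plasmablasts (log2 change 0.80 ± 0.17 SE, adjusted p = 0.0145). Itgb7, the other partner of alpha 4, was at 5.33 and 6.60 FPKM in pre-plasmablasts and 3.73 and 3.06 FPKM in plasmablasts (log2 change -0.66, adjusted p = 0.0756) and did not pass. Itgal, the alpha chain of LFA-1, was at 98.5 and 105 FPKM in pre-plasmablasts and 129 and 141 FPKM in plasmablasts (log2 change 0.40 ± 0.11 SE, adjusted p = 0.0457), and its partner Itgb2 at 155 and 169.6 FPKM in pre-plasmablasts and 166 and 191 FPKM in plasmablasts (log2 change 0.14, adjusted p = 0.575). Itgam, the alpha chain of Mac-1, was at 14.3 and 12.1 FPKM in pre-plasmablasts and 1.67 and 1.06 FPKM in plasmablasts (log2 change -2.59 ± 0.17 SE, adjusted p = 3.53e-05), and Itgb3 fell from 9.88 and 8.98 to 4.25 and 3.31 FPKM. Icam2 rose from 78.6 and 92.6 to 149 and 186 FPKM. The list's other changes were rises of Itgav, Itgb5, Cd44 and Selplg and falls that included Itga6, Rasgrp2 and Apbb1ip. Left out in the order given above, the libraries gave 2, 5, 8 and 2 rises and 5, 4, 5 and 4 falls, and the median of the list, 0.12, turned to -0.02 with equal totals. As the library left out, pre-plasmablast replicate 1 ended the calls of Itga4 and Itgal (adjusted p up to 0.218), pre-plasmablast replicate 2 that of Itgal (0.105), plasmablast replicate 1 that of Itgal (0.0809) and plasmablast replicate 2 those of Itga4 and Itgal (up to 0.235). Of the other fits, the fit of only the 4 libraries ended the call of Itgal (adjusted p = 0.0687), no filter that of Itgal (0.0837), the pattern term that of Itgal (0.125), quantile normalization that of Itgal (0.0727) and equal totals that of Itgal (0.0869). Conversely, the pattern term gave the call of Itgb7 (adjusted p = 0.0234) and equal totals that of Itgb7 (0.0314).

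Of 16 genes in the list of homing receptors, not all of them receptors, 3 rose and 3 fell, 37.5% called against 10.8% of all genes. Cxcr5, which draws B cells to follicles, was at 52.0 and 49.9 FPKM in pre-plasmablasts and 18.0 and 14.2 FPKM in plasmablasts (log2 change -1.61 ± 0.11 SE, adjusted p = 3.93e-05). Ccr10, the receptor that draws plasma cells to mucosal and skin sites, was at 9.77 and 8.89 FPKM in pre-plasmablasts and 23.4 and 15.4 FPKM in plasmablasts (log2 change 0.96 ± 0.19 SE, adjusted p = 0.0118). The populations did not overlap in either, as holds for every called gene. Gpr132 fell from 30.9 and 30.4 to 18.4 and 19.1 FPKM, and Ebi3, a cytokine subunit placed in this list, rose from 29.0 and 36.9 to 55.0 and 76.6 FPKM. Of 39 genes of the actin cytoskeleton 7 fell, among them Lcp1 (from 98.9 and 106 to 61.4 and 64.5 FPKM), Actg1 (from 29.3 and 27.7 to 17.0 and 18.7 FPKM) and Myo1e (from 21.0 and 28.9 to 13.5 and 13.3 FPKM), and Pls1 rose. The share of actin genes called was 20.5%, and with equal totals 20 of the 39 fell. Leaving out 1 library in turn gave 0, 1, 1 and 2 rising and 4, 2, 2 and 2 falling homing genes, and 3, 4, 4 and 3 falling actin genes. In fits without 1 library, leaving out pre-plasmablast replicate 1 ended the calls of Ccr10 and Ebi3 (adjusted p up to 0.057), pre-plasmablast replicate 2 that of Ccr10 (0.0678) and plasmablast replicate 1 that of Ccr10 (0.0695). In the other fits, the fit of only the 4 libraries ended the calls of Ccr10, Ebi3 and Myo1e (adjusted p up to 0.0636).

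Among 13 inhibitory and regulatory molecules, 4 rose and 1 fell, 38.5% called against 10.8% of all genes. Tigit was described above. Pdcd1, the receptor PD-1, was at 47.7 and 53.8 FPKM in pre-plasmablasts and 89.8 and 89.1 FPKM in plasmablasts (log2 change 0.81 ± 0.17 SE, adjusted p = 0.0129). Btla, another inhibitory receptor, was at 14.2 and 18.2 FPKM in pre-plasmablasts and 24.2 and 25.1 FPKM in plasmablasts (log2 change 0.58 ± 0.14 SE, adjusted p = 0.0226). In both the plasmablast libraries were close together and above the others. Entpd1 rose, and Il12a, a subunit of the cytokines IL-12 and IL-35, fell from 9.88 and 8.27 to 4.96 and 1.95 FPKM. Of 18 members of the Bcl2 family, Bcl2l11, which encodes the death inducer Bim, rose from 92.2 and 159 to 195 and 319.7 FPKM and Bid fell from 33.7 and 39.6 to 27.7 and 26.7 FPKM, which is 11.1% called, near the 10.8% of all genes. Without pre-plasmablast replicate 1 and plasmablast replicate 2 the log2 change of Bcl2l11 was 0.65 and 0.68 in place of 1.04, and without the latter that of Il12a was -0.75 in place of -1.26. Libraries left out in turn gave 1, 3, 2 and 1 rises in the inhibitory list. Left out in turn, pre-plasmablast replicate 1 ended the calls of Pdcd1, Btla, Il12a, Bcl2l11 and Bid (adjusted p up to 0.183), pre-plasmablast replicate 2 those of Il12a and Bid (up to 0.198), plasmablast replicate 1 those of Pdcd1, Btla and Bid (up to 0.0931) and plasmablast replicate 2 those of Pdcd1, Btla, Il12a, Bcl2l11 and Bid (up to 0.195). Among the other settings, the fit of only the 4 libraries ended the calls of Btla, Il12a, Bcl2l11 and Bid (adjusted p up to 0.142), no filter those of Btla, Il12a, Bcl2l11 and Bid (up to 0.078), the pattern term those of Btla, Il12a and Bcl2l11 (up to 0.0732) and equal totals that of Btla (0.0624).

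Part of the DNA replication genes fell, while few genes of mitosis passed the test. Of 34 genes of DNA replication 8 fell and 1 rose (median -0.21), and of 32 of mitosis 1 fell and 0 rose. The shares called were 26.5% and 3.1%, against 10.8% of all genes. Slbp, the histone mRNA binding protein, was at 61.6 and 54.5 FPKM in pre-plasmablasts and 40.7 and 40.9 FPKM in plasmablasts (log2 change -0.50 ± 0.09 SE, adjusted p = 0.00682). Tk1, thymidine kinase, was at 22.9 and 20.9 FPKM in pre-plasmablasts and 14.9 and 14.1 FPKM in plasmablasts (log2 change -0.56 ± 0.11 SE, adjusted p = 0.0105). The falls were small beside those of B cell genes, and the libraries did not overlap, as holds for every called gene. E2f2 fell by 0.39 on the log2 scale. Cdc25b, the phosphatase that admits cells to mitosis, was at 179 and 163 FPKM in pre-plasmablasts and 107 and 94.9 FPKM in plasmablasts (log2 change -0.76 ± 0.08 SE, adjusted p = 0.000612), while Kif20a did not pass (log2 change -0.31). Of 22 cell cycle inhibitors and Myc network genes 3 rose, namely Cdkn2b (from 11.0 and 17.8 to 33.4 and 37.0 FPKM), Cdkn2c (from 30.7 and 30.5 to 42.9 and 44.8 FPKM) and Mxi1 (from 4.76 and 4.92 to 8.41 and 7.46 FPKM), and the 13.6% called is near the 10.8% of all genes. Leaving out libraries in turn gave 0, 3, 8 and 1 falling replication genes and 0, 2, 3 and 0 rising inhibitors, and equal totals 16 falling replication genes. When left out, pre-plasmablast replicate 1 ended the calls of Slbp, Tk1, E2f2, Cdkn2b, Cdkn2c and Mxi1 (adjusted p up to 0.103), pre-plasmablast replicate 2 those of Cdkn2c and Mxi1 (up to 0.0657), plasmablast replicate 1 that of Mxi1 (0.0901) and plasmablast replicate 2 those of Tk1, E2f2, Cdkn2b, Cdkn2c and Mxi1 (up to 0.11). Of the other fits, the fit of only the 4 libraries ended the calls of E2f2 and Mxi1 (adjusted p up to 0.0814) and equal totals that of Mxi1 (0.0538).

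Few genes of the housekeeping lists passed the test, against 10.8% of all genes tested. Of 76 cytosolic ribosomal proteins 0 passed the test, of 21 glycolysis genes 0, of 67 of oxidative phosphorylation 2, of 37 proteasome genes 1, of 29 of sterol and fatty acid synthesis 1 and of 28 immediate early and heat shock genes 2. At an unadjusted p below 0.05 the ribosomal list held 5 and the glycolysis list 4. Ndufa1, a subunit of complex I, rose from 534 and 488 to 702 and 738 FPKM and Ndufb9 from 199.7 and 203 to 242 and 281 FPKM. Psmd14, the deubiquitinase of the proteasome, fell from 192 and 164 to 128 and 143 FPKM, and Scd1, a fatty acid desaturase, from 77.5 and 73.9 to 54.1 and 44.0 FPKM. The early genes Ier5 and Egr2 rose from 43.7 and 48.7 to 72.2 and 72.6 FPKM and from 23.1 and 27.7 to 42.2 and 45.0 FPKM. Rpl6 and Rps24, the ribosomal genes with the lowest p, had log2 changes of -0.33 and 0.35, and Gpi1 and Pfkm of glycolysis -0.29 and 0.46. As the library left out, pre-plasmablast replicate 1 ended the calls of Ndufb9, Psmd14, Scd1, Ier5 and Egr2 (adjusted p up to 0.249), pre-plasmablast replicate 2 those of Ndufa1, Ndufb9 and Scd1 (up to 0.129), plasmablast replicate 1 those of Psmd14 and Scd1 (up to 0.183) and plasmablast replicate 2 those of Ndufa1, Ndufb9, Psmd14, Scd1 and Egr2 (up to 0.27). In the other fits, the fit of only the 4 libraries ended the calls of Ndufa1, Ndufb9, Psmd14 and Scd1 (adjusted p up to 0.116), no filter those of Ndufb9, Psmd14 and Scd1 (up to 0.103), the pattern term those of Ndufb9, Psmd14 and Scd1 (up to 0.0987), quantile normalization those of Ndufa1 and Ndufb9 (up to 0.171), equal totals that of Ndufb9 (0.0734) and equal medians that of Scd1 (0.0536). Conversely, quantile normalization gave the call of Gpi1 (adjusted p = 0.026) and equal totals those of Rpl6 and Gpi1 (up to 0.0172).

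The same step was set beside that of cells with Mzb1, whose means share no library with it. Both tests came from the same fit to all 12 libraries and share its estimate of spread. Their calls are thus not independent. In Mzb1+/+ cells 966 genes (8.73%) passed the test, 556 (5.02%) higher and 410 (3.7%) lower in plasmablasts. Of the calls, 694 were shared with the same direction and 0 had opposite directions, which is 58.0% of the Mzb1-/- calls and 71.8% of the Mzb1+/+ calls. A further 502 genes passed in Mzb1-/- cells and not in Mzb1+/+ cells, of which 485 changed with the same sign in Mzb1+/+ cells, so passing in 1 genotype does not show a difference. When the difference of the steps was itself tested, 0 genes (0%) passed in limma. At an unadjusted p below 0.05 there were 272 (2.46% of those tested), and the lowest adjusted p was 0.787. The median half-width of the 95% interval was 0.40 for the difference and 0.28 for the Mzb1-/- step on the log2 scale. These intervals are not adjusted for the number of genes, and differences as large as -1.81, that of A630023P12Rik, did not pass adjustment. Without Mzb1+/+ pre-plasmablast replicate 1 that step called 382 genes, without replicate 2 364, without Mzb1+/+ plasmablast replicate 1 418 and without replicate 2 248.

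For the main members the steps were set side by side. Sdc1 rose by 4.08 in Mzb1-/- and 3.77 in Mzb1+/+ cells (difference 0.30, 95% interval -0.29 to 0.90), Tnfrsf17 by 2.95 and 2.76 (interval -0.99 to 1.36) and Xbp1 by 0.58 and 0.63 (interval -0.35 to 0.24). For Hspa5 the interval of the difference was -0.33 to 0.39, for Hsp90b1 -0.40 to 0.40 and for Itgb1 -0.33 to 0.37. In Mzb1-/- and Mzb1+/+ cells, 13 and 10 of 35 chaperones rose, and 7 and 10 of 27 genes of ER-associated degradation. So did 8 and 7 of 26 genes of the translocon, 15 and 11 of 37 of N-glycosylation and 4 and 5 of 40 of ER to Golgi transport. Of 32 genes of the lysosome and autophagy 9 and 11 rose, and of 14 of MHC class II 9 and 10 fell. Over all genes tested, 6.57% and 5.02% were called higher and 4.24% and 3.7% lower. The difference of the counts was not tested.

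For single genes, no difference passed adjustment. Mzb1, Pax5, Apoe and Itgam come first as genes named above and were not chosen by the p of the difference. Mzb1 rose in Mzb1+/+ cells and changed by 0.13 in Mzb1-/- cells (difference -0.58, 95% interval -0.98 to -0.19, unadjusted p = 0.00834). The log2 change of Pax5 was -1.37 in Mzb1-/- cells and -2.13 in Mzb1+/+ cells, where it went from 13.6 and 13.8 to 2.02 and 2.76 FPKM (difference 0.75, interval 0.36 to 1.14, unadjusted p = 0.0014). Both Mzb1+/+ plasmablast libraries were below both Mzb1-/- plasmablast libraries for Pax5. Apoe fell by 2.48 and 3.74 (interval of the difference 0.36 to 2.16) and Itgam by 2.59 and 1.74 (interval -1.37 to -0.34). In Mzb1+/+ cells Itgam went from 3.44 and 2.46 to 0.152 and 0.197 FPKM, levels whose change the added 1 FPKM shrinks, and with a pseudocount of 0.1 the difference for Itgam was 0.25 (interval -0.44 to 0.94, unadjusted p = 0.437), so no direction of the difference is read. The lowest p of a more positive change in Mzb1-/- cells were those of 1700041A01Rik, listed at 0 in both pre-plasmablast libraries and at 1.41 and 1.31 FPKM in plasmablasts (unadjusted p = 0.000137), Mettl20 (0.000666) and 4632427E13Rik (0.00109). A630023P12Rik fell from 3.50 and 3.84 to 0.758 and 0.481 FPKM against a change of 0.28 in Mzb1+/+ cells (unadjusted p = 0.000142), and Nat2 (0.000485) and Trmu (0.00115) followed. In this step of both genotypes, 1700041A01Rik reached 1 FPKM only in Mzb1-/- plasmablasts and A630023P12Rik only in Mzb1-/- pre-plasmablasts. For 4632427E13Rik it was only in Mzb1+/+ pre-plasmablasts, at 1.33 and 1.43 FPKM. These genes can thus have entered the test through the group where they are high. Both Mzb1-/- plasmablast libraries had the second of the fragment patterns and all Mzb1+/+ libraries the first, so in plasmablasts pattern and genotype cannot be told apart. Among the other settings, a pseudocount of 0.1 ended the call of A630023P12Rik (adjusted p = 0.0507).

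**Figure D4:**
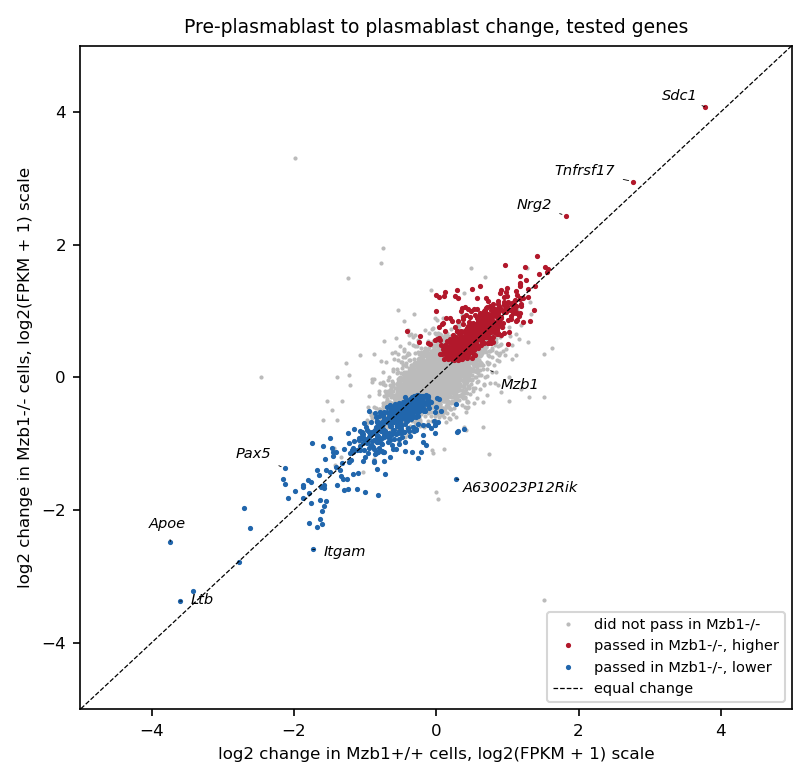
Log2 change from pre-plasmablasts to plasmablasts in Mzb1-/- cells (vertical) against Mzb1+/+ cells (horizontal) for tested genes other than small RNA genes. Red and blue points passed the test in Mzb1-/- cells, and lie around the line of equal change, as for Sdc1 (4.08 and 3.77); 0 genes passed the test of the difference.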

How the data were processed

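Spleen B cells were cultured with LPS, sorted, and sequenced as 12 stranded, poly(A)-selected libraries, 2 for each of 3 populations and 2 genotypes, per the labels' protocols. The deposited values are FPKM for 24325 gene symbols per library, made by the authors. The submitters' processing notes name the build mm9, Cuffnorm 2.2.1 and Cuffdiff, Cufflinks 2.2.1, TopHat2 2.0.14, and bcl2fastq in versions 0.3.1 and 2.17.1.14, with no roles or settings. No counts were given, so no count model was used and depth is unknown. FPKM are relative to each library, so a change in total RNA per cell is not measured.

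FPKM were taken as log2(FPKM + 1), a scale that understates changes of low genes, and 11069 genes were tested, those that reached 1 FPKM in 2 or more of the 12 libraries. A 6-group model with no covariates was fitted to all 12 libraries with limma 3.58.1 (R 4.3.3, trend). Its moderated test is two-sided, with Benjamini-Hochberg adjustment over all 11069 genes, and genes below an adjusted p of 0.05 are called, with 6 residual degrees of freedom. Errors are SE of that fit. The fit was tested on simulated data. Tables and figures used Python 3.11.15 and matplotlib 3.10.9.

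The comparison and the 29 gene lists were chosen with earlier results of these data known. Named genes are 14 set members (Sdc1, Tnfrsf17, Mzb1, Prdm1, Xbp1, Jchain, Irf4, Hsp90b1, Hspa5 and the integrin genes Itgb1, Itga4, Itgb7, Itgal and Itgb2), the 15 largest rises and 15 largest falls among called genes with no overlap and a group mean of at least 5 FPKM, per list the 4 called members of lowest p, or, with fewer than 2 called, the 2 members of lowest p, and the 3 genes each way with the lowest p for the difference between genotypes. Other genes with values were chosen after their values were seen, among them Lat, Cd68, Eomes, Siglecf, Cd79a, Ms4a1, Ell2, Sil1, Txndc11, Dnajc3, Calr, Canx, Pdia6, Slc7a5, H2-Aa, H2-Ab1, Cd74 and Ifi30. A few genes that the rule names are not reported here. Promoter windows of RefSeq (GRCm38.p6) were matched by symbol. Alternatives were other pseudocounts, filters and scalings, a fit of only the groups compared, a replicate block, a term for the pattern of low values and leaving out each library.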

Additional observations from a re-analysis of the deposited data

How the results depend on the processing

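Leaving out 1 library at a time gave 377 to 808 called genes in the Mzb1-/- step (209 to 485 higher, 168 to 323 lower), 248 to 418 in the Mzb1+/+ step and 0 to 1 for the difference, the 1 being Snora65 without Mzb1-/- pre-plasmablast replicate 2. A fit of only the groups compared called 489 (288 higher, 201 lower) and, in Mzb1+/+ cells, 532, with fewer samples behind the spread. Equal totals gave 389 higher and 1024 lower, and 1458 calls in Mzb1+/+ cells. For the difference, no filter on low values gave 4 calls (1700001J03Rik, 1700041A01Rik, 1700096J18Rik and Tcte3) and a term for the pattern of low values 1 (Snord16a). The labels give all groups the same replicate numbers. With the replicate block 1743 genes were called in Mzb1-/- cells (1050 higher, 693 lower) and 1558 in Mzb1+/+ cells. Replicate differences correlated across genes at 0.29, 0.11 and 0.10 between pairs of Mzb1-/- populations, at 0.05, 0.24 and 0.32 in Mzb1+/+ cells and at -0.11 to -0.05 between genotypes. Not all exceeded 0.1, and what a deposited number marks is not stated, so the block was kept as an alternative and the pairing is not settled. Of 118 named genes called, 43 lost the call without pre-plasmablast replicate 1, 24 without replicate 2, 15 without plasmablast replicate 1, 43 without replicate 2, 43 in the fit of only the groups compared, 14 with no filter, 12 with the pattern term, 11 with equal totals and 0 with the block, and 0 changed direction under any of these. Calls were gained by 1 named gene with no filter, 2 with quantile normalization, 4 with equal totals, 1 with the pattern term and 5 with the block, Itgb7 (adjusted p = 0.042) among the last. Depth is unknown, and 2 libraries a group limit what could be detected. The causes of these shifts were not tested.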

Other observations

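Genes outside the lists also changed, and those named here were chosen after their values were seen. Srgn, the proteoglycan of secretory granules, rose from 755 and 825 to 1312 and 1566 FPKM (log2 change 0.86 ± 0.13 SE, adjusted p = 0.00293). Itm2b, a membrane protein, rose from 969 and 935 to 1482 and 1609 FPKM, Gnas, the stimulatory G protein subunit, from 1215 and 1355 to 1668 and 1934 FPKM, and Pik3cg, the gamma catalytic subunit of phosphoinositide 3-kinase, from 58.2 and 64.3 to 147 and 161 FPKM. Fth1, the ferritin heavy chain that stores iron, fell from 1332 and 1939 to 700.5 and 882 FPKM (log2 change -1.03 ± 0.21 SE, adjusted p = 0.0116). Plac8 fell from 581 and 781 to 284 and 354 FPKM, Il21r, the receptor of interleukin 21, from 218 and 207 to 102 and 91.5 FPKM, and the repressor Zbtb32 from 29.2 and 30.5 to 9.80 and 8.79 FPKM. The populations did not overlap in any of these genes, which holds for all 1196 called genes and for 54.9% of all genes tested. In fits without 1 library, leaving out pre-plasmablast replicate 1 ended the calls of Itm2b and Gnas (adjusted p up to 0.17), pre-plasmablast replicate 2 those of Itm2b, Gnas and Fth1 (up to 0.081), plasmablast replicate 1 that of Fth1 (0.0716) and plasmablast replicate 2 those of Itm2b and Gnas (up to 0.171). Of the other fits, the fit of only the 4 libraries ended the calls of Itm2b, Gnas and Fth1 (adjusted p up to 0.156), no filter those of Itm2b and Gnas (up to 0.0802) and the pattern term that of Gnas (0.0732).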
